A study of Mus musculus with 24 samples.

Results

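The 10 mesenchymal transcription factors described here were Twist1, Twist2, Snai1, Snai2, Zeb1, Zeb2, Prrx1, Tcf21, Hand2 and Msc, taken by their gene symbols from a table of 56205 mouse genes. Each symbol matched 1 Ensembl identifier, and all 10 were among the 17913 genes that 12 or more of the 24 libraries covered with 1 count or more and that were tested. The data were RNA-Seq of whole liver from C57BL/6J mice that were young adults when the diets began. In 1 group, mice ate a high-fat chow (palm oil as the fat, plus fructose and cholesterol) for 20 weeks, and in the other a control diet for the same time, with 12 libraries per diet and 1 mouse per library. No transgene, deletion or drug is named for either group. The comparison asked which of the 10 factors differed in RNA level between the diets.

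Twist1, Twist2, Tcf21, Hand2 and Msc are basic helix-loop-helix proteins that bind DNA as dimers, usually with an E protein, and Id proteins block this pairing. Snai1, Snai2, Zeb1 and Zeb2 are zinc finger repressors that bind E-box sequences and recruit corepressors, and they are known for switching off epithelial genes. Prrx1 is a homeobox protein of embryonic and wound mesenchyme. In liver, Tcf21 and Hand2 are found in hepatic stellate cells, the vitamin A-storing pericytes that become collagen-producing myofibroblasts in fibrosis, whereas Zeb2 is also made by Kupffer cells and other macrophages.

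The 12 high-fat libraries had gene counts between 16490817 and 21213070 in total, and the 12 control libraries between 14468418 and 22112552. The lowest total belonged to control replicate 10, whose TMM scaling factor of 0.679 also stood apart from that of the next control library (0.851). The diet effects below were also computed without it. The series' design names mice of both sexes, but no label gives the sex of a library. The libraries fell into sets by Xist, the RNA that silences an X chromosome: replicates 1 to 6 of both diets had 2664 to 6285 Xist counts (Xist-high, 6 libraries per diet), and replicates 7 to 12 had 0 to 3 (Xist-low, 6 per diet). Whole liver was recognisable by its hepatocyte transcripts, with albumin at a mean of 45203 CPM (counts per 1e+06 counts) in high-fat and 74342 CPM in control libraries.

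Of the 10 factors, 4 were called higher on the high-fat diet (Snai1, Msc, Tcf21 and Zeb2) and 0 were called lower. A call required an adjusted p of at most 0.01 in edgeR's quasi-likelihood test and an absolute log2 fold change over 0.5. Among all 17913 genes tested, 13.2% were called higher and 4.99% lower. No factor was lower at an unadjusted p under 0.05 in edgeR either. The share of all genes at an unadjusted p is not given, here or below. At an adjusted p of at most 0.05 with no fold threshold, 3388 of all genes were lower. The fitted log2 fold change was above 0 for all 10 factors and for 8457 of the 17913 genes tested. The median of the 10 factors was 0.65, against -0.03 over all genes tested. When libraries were scaled by their totals alone, the median over all genes moved to 0.26, and 6 of the 10 were then called higher (Prrx1 and Hand2 in addition), beside 21.4% of all genes tested. No factor had every high-fat diet library above every control library, a separation that 1.48% of the genes tested showed. In whole liver, a change in the number of cells that make a transcript and a change in its RNA per cell cannot be told apart.

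**Figure D1:**
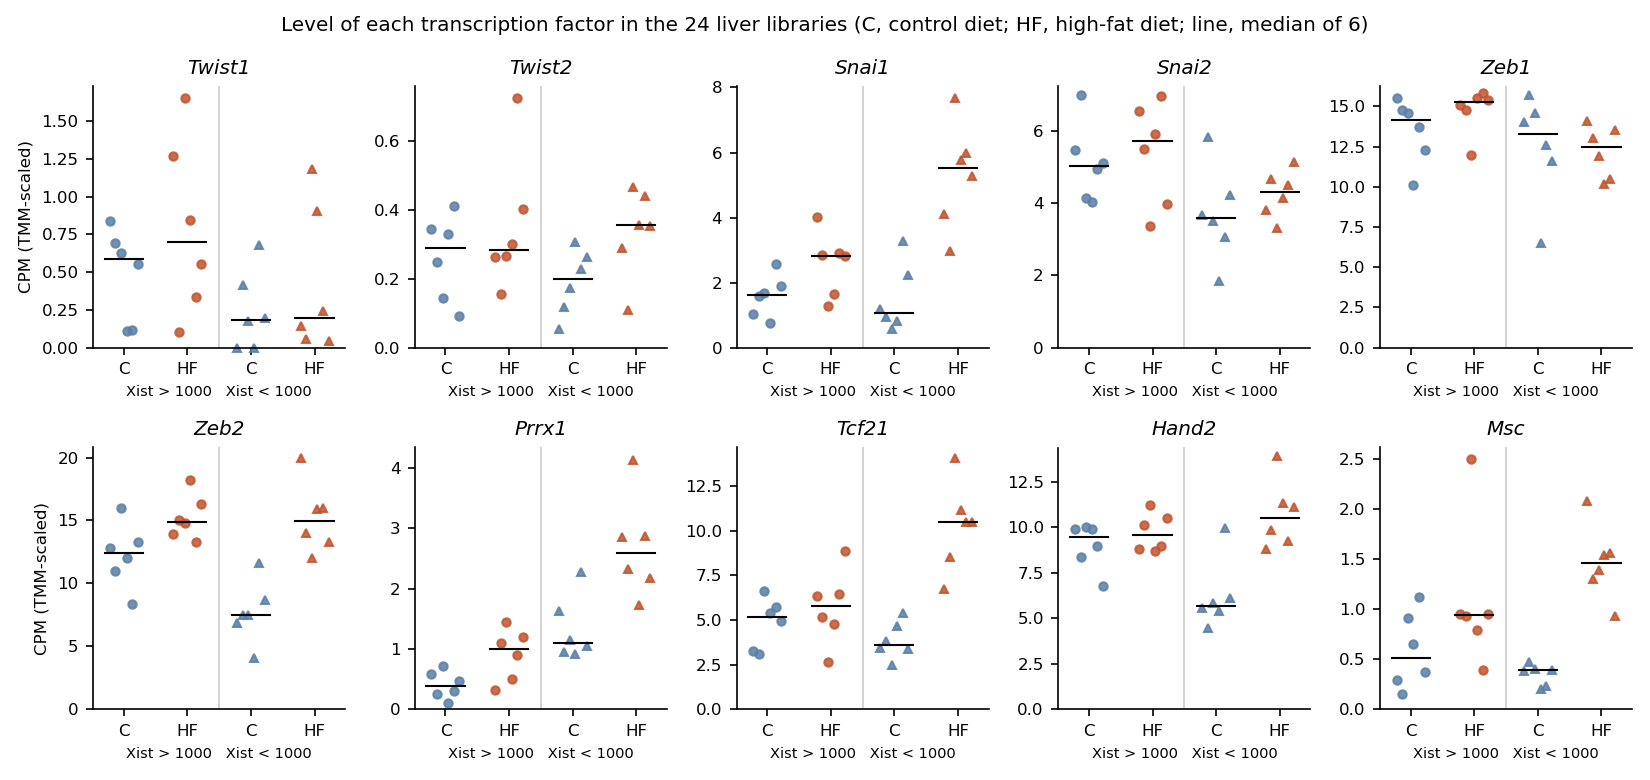
Level of each of the 10 factors in every library, in CPM on a linear axis from 0 with TMM scaling, for control (C, blue) and high-fat (HF, orange) diets in Xist-high (circles) and Xist-low (triangles) libraries; lines mark the median of 6. In Xist-low libraries every high-fat value of Zeb2, Tcf21 and Msc lies above every control value, and Prrx1 is higher in the Xist-low than in the Xist-high libraries of either diet.

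Per kilobase of exon, which allows levels of different genes to be compared, Hand2 had the highest level on the control diet, at 3.23 ± 0.90 CPM per kb (SD, n = 12). It was followed by Snai2 at 2.18 ± 0.68, Tcf21 at 1.85 ± 0.55, Zeb1 at 1.27 ± 0.26, Snai1 at 0.955 ± 0.51 and Zeb2 at 0.5002 ± 0.17 CPM per kb. Twist1, Msc, Prrx1 and Twist2 came last, at 0.225 ± 0.18, 0.182 ± 0.11, 0.0781 ± 0.056 and 0.0711 ± 0.035 CPM per kb. For every pair of neighbours in this order, the ranges of mean ± SD overlapped. On the high-fat diet, Hand2 was again first at 4.34 ± 0.64 CPM per kb. Tcf21 came second at 3.402 ± 1.37 and Snai1 next at 2.43 ± 1.18, close to Snai2 at 2.38 ± 0.60 CPM per kb. Snai2 and Zeb1 (1.31 ± 0.19), and Zeb1 and Zeb2 (0.765 ± 0.11), were the neighbours whose ranges did not overlap on that diet. These lengths are the union of all annotated exons, which can exceed the transcript in use, most of all for Zeb2 with 19942 bases.

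RefSeq lists a transcription start for 7 of the 10 factors in its mouse promoter table. The letters before the start are shown for the called factors in that table, since Snail and Zeb proteins are known to bind the E-box CAGGTG, which on the opposite strand reads CACCTG. In the 250 bases before each start, this motif was searched on both strands. It was present in 17.2% of all 32851 promoters and at 1 of the 10 starts listed for the factors, that of Snai1, 126 bases before the start. The broader E-box CANNTG, which contains it, was found in 66.2% of all promoters and at 2 of these 10 starts (Snai1 and Hand2). Sequences are GRCm38.p6, 5′ to 3′ on the strand of the gene, with the motif in capitals. The windows are chr2:167537945-167538194 (plus strand) for Snai1, chr10:22820144-22820393 (minus strand) for Tcf21 and chr2:45117443-45117692 (minus strand) for the most upstream of 4 Zeb2 starts.
Snai1: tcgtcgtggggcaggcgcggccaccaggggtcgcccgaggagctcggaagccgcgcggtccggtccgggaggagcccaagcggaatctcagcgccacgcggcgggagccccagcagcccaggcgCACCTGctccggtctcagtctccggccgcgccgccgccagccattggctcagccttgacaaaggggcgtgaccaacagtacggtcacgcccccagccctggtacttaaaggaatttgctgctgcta
Tcf21: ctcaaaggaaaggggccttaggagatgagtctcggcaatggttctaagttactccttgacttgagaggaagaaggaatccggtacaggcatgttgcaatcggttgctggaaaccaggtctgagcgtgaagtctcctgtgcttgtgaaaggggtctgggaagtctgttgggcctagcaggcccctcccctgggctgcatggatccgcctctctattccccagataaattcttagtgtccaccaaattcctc
Zeb2: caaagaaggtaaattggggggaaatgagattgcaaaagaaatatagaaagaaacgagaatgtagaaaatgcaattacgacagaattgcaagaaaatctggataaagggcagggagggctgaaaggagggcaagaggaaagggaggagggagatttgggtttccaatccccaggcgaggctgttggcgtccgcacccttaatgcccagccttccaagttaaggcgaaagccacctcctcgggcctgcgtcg
The Tcf21 and Zeb2 windows do not hold these letters, which says nothing about binding elsewhere.

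Snai1 (ENSMUSG00000042821, chr2:167538195-167542814, plus strand), the founding Snail repressor, was higher on the high-fat diet. High-fat libraries had 24 to 182 counts with a median of 66, and control libraries 8 to 58 with a median of 27. In CPM this was 3.94 ± 1.91 against 1.55 ± 0.83 (SD, n = 12 per diet). The groups overlapped, with 6 high-fat libraries above every control library and 11 of 12 above the control median. The log2 fold change was 1.34 (SE 0.29, a 2.54-fold difference, edgeR adjusted p = 0.000714), and a permutation test of log2(CPM + 1) gave p = 0.00045 (two-sided, unadjusted). Snai1 was called higher in all 9 alternative fits to the full set of libraries that tested it and in all 24 fits that left out 1 library, with values between 1.21 and 1.496 in the latter.

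Snai2 (ENSMUSG00000022676, chr16:14705852-14709385, plus strand), or Slug, is the paralog best known from neural crest. It had 63 to 125 counts on the high-fat diet (median 98.5) and 18 to 141 on the control diet (median 79). No high-fat library lay above the highest control library. The log2 fold change was 0.12 with a 95% interval from -0.20 to 0.45 (adjusted p = 0.589, edgeR). A 2-fold change of Snai2 in either direction lay outside this interval, which like all intervals here was set from the SE by the normal distribution.

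Within a library, the ratio of Snai2 to Snai1 counts does not depend on how libraries are scaled. Its log2 value had a mean of 1.60 ± 0.83 on the control diet and 0.42 ± 0.89 on the high-fat diet (SD, n = 12), which is 3.03 against 1.33 Snai2 counts per Snai1 count. Snai2 had more counts than Snai1 in 11 of 12 control libraries and in 7 of 12 high-fat libraries. The difference in means was -1.18 (SE 0.35, permutation p = 0.00352, two-sided). In the Xist-low libraries the difference was -1.71 (exact permutation p = 0.00649, 6 against 6), and in the Xist-high libraries -0.65 (exact permutation p = 0.0693). These are 1 of 3 ratios of related factors tested, and their p-values are not adjusted.

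Zeb2 (ENSMUSG00000026872, chr2:44983632-45117395, minus strand), also called Sip1, was higher on the high-fat diet, with 239 to 414 counts (median 295.5) against 40 to 333 (median 174). All 12 high-fat libraries lay above the control median, and 9 of 12 control libraries lay below every high-fat library. In CPM the means were 15.2 ± 2.2 and 9.98 ± 3.4. Zeb2 had a log2 fold change of 0.61 (SE 0.15, 1.52-fold, edgeR adjusted p = 0.00242). It ranged from 0.53 to 0.69 with 1 library left out, and the call was kept in all 24 of these fits.

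Zeb2os, the antisense RNA of the Zeb2 locus, shares 653 exon bases with Zeb2 and had a median of 17 counts in high-fat and 5 in control libraries (log2 fold change 1.40, SE 0.34, edgeR adjusted p = 0.00214). Whether the counting used the strand is not given in the sources used here, so reads from the shared bases cannot be assigned to 1 of these genes with certainty. Zeb2 had over 10 times as many counts as Zeb2os at the median.

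Zeb1 (ENSMUSG00000024238, chr18:5591860-5775467, plus strand), the repressor studied most in carcinoma cells, had 215 to 312 counts on the high-fat diet (median 284.5) and 64 to 316 on the control diet (median 256). The low value of 64 was control replicate 10. The log2 fold change was 0.05 with a 95% interval from -0.17 to 0.27 (adjusted p = 0.746, edgeR), and without that library it was -0.01. Among the 10 factors Zeb1 had the narrowest interval.

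The log2 ratio of Zeb2 to Zeb1 counts had a mean of -0.43 ± 0.47 on the control diet and 0.18 ± 0.29 on the high-fat diet (SD, n = 12). Zeb1 had the more counts in 9 of 12 control libraries, and Zeb2 in 9 of 12 high-fat libraries. The difference was 0.61 (SE 0.16, permutation p = 0.00091, two-sided). It was 1.02 in the Xist-low libraries, where the diets did not overlap (exact permutation p = 0.00216, the smallest that 6 against 6 allows), and 0.19 in the Xist-high libraries (exact permutation p = 0.297). Both genes are long, so counts per gene and not levels per length are compared here.

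**Figure D2:**
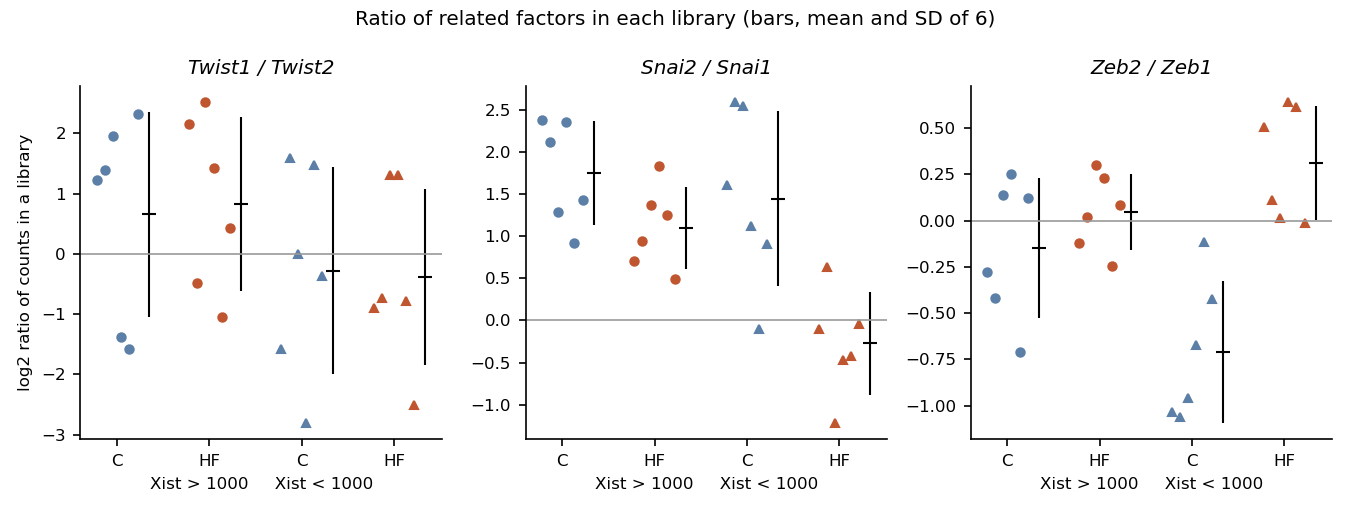
Log2 ratio of counts (each plus 0.5) of related factors in every library, by diet (C, control; HF, high-fat) and Xist set, with the mean and SD of 6 as black bars; the grey line marks equal counts. The mean of Snai2/Snai1 is lowest and that of Zeb2/Zeb1 highest in the Xist-low libraries of the high-fat diet, and Twist1/Twist2 scatters from -2.81 to 2.52 over all 24 libraries.

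Twist1 (ENSMUSG00000035799, chr12:33957671-33959829, plus strand) and Twist2 (ENSMUSG00000007805, chr1:91801461-91848028, plus strand) are paralogs that act in head mesoderm and dermis and are induced in many fibroses. Twist1 had 1 to 31 counts on the high-fat diet (median 8.5) and 0 to 17 on the control diet (median 5). Twist2 had 2 to 13 counts (median 7) and 1 to 7 (median 3.5). At this depth 3 counts, the limit used here for a value set by counting error, equal 0.148 CPM on the high-fat diet and 0.175 CPM on the control diet. Twist1 was at or below 3 counts in 4 high-fat and 6 control libraries, and Twist2 in 2 and 6.

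Twist1 had a log2 fold change of 0.69 with a 95% interval from -0.39 to 1.76 (adjusted p = 0.335, edgeR). For Twist2 it was 0.61, from 0.0092 to 1.21 (adjusted p = 0.116, edgeR). Both intervals hold a 2-fold rise as well as values near 0. The permutation test of log2(CPM + 1), unadjusted, gave p = 0.248 for Twist1 and 0.0449 for Twist2. Their log2 ratio differed between diets by 0.04 (SE 0.66, permutation p = 0.954), with more Twist1 than Twist2 counts in 6 of 12 libraries of each diet. An antisense RNA annotated over Twist2, Gm29100, shares 1477 exon bases with it and had 0 to 3 counts per library.

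Tcf21 (ENSMUSG00000045680, chr10:22817281-22820174, minus strand), also called capsulin or Pod1, marks stellate cells and other pericyte-like mesenchyme. It had 50 to 333 counts on the high-fat diet (median 148.5) and 43 to 138 on the control diet (median 65.5), or 7.99 ± 3.2 against 4.35 ± 1.3 CPM. Of the 12 high-fat libraries, 7 lay above every control library and 11 above the control median. Its log2 fold change was 0.88 (SE 0.21, 1.84-fold, edgeR adjusted p = 0.00172). The call held in all 24 fits with 1 library left out, between 0.78 and 0.96, and in 9 of 10 alternative fits. With the replicate number as a block the value was 0.82 and the adjusted p was 0.0147.

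Hand2 (ENSMUSG00000038193, chr8:57320983-57324633, plus strand), known for heart and limb development, had the highest level per length of the 10. Its counts were 161 to 328 on the high-fat diet (median 192) and 53 to 208 on the control diet (median 150). All 12 high-fat libraries lay above the control median, and 6 above every control library. The log2 fold change of 0.42 (SE 0.13, 1.34-fold) had an adjusted p of 0.0121 in edgeR and met neither threshold. With library totals alone it was 0.71 and was called (adjusted p = 0.000926, edgeR).

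Hand2os1, the RNA transcribed from the other strand beside Hand2, shares 461 exon bases with it and had a median of 81.5 counts in high-fat and 62 in control libraries. Its log2 fold change was 0.22 (SE 0.13, edgeR adjusted p = 0.196). Part of the counts of either gene could come from the other if strand was not used.

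Msc (ENSMUSG00000025930, chr1:14753346-14755992, minus strand) encodes musculin, a repressor described in muscle precursors and in lymphocytes. It had 7 to 47 counts on the high-fat diet (median 22.5) and 2 to 19 on the control diet (median 7). All 12 high-fat libraries lay above the control median, and 6 above every control library. With a log2 fold change of 1.44 (SE 0.30, 2.71-fold, edgeR adjusted p = 0.000584), it had the largest fitted change of the 10, although the interval from 0.84 to 2.03 covers the value of Snai1. It was called in all 9 alternative fits to all libraries that tested it and in all 24 with 1 library left out. Beside it, 0 of 6 T cell markers and 0 of 5 B cell markers were called in edgeR or DESeq2. At an unadjusted p under 0.05 in edgeR, 1 T cell marker was higher and 1 lower, and 0 B cell markers were either. The T cell list summed to 2.18 to 7.48 CPM in high-fat and 1.97 to 8.996 CPM in control libraries, and the B cell list to 2.48 to 11.5 and 2.55 to 10.4 CPM. In the Xist-low libraries, where the log2 fold change of Msc was 2.05 against 0.92 in the Xist-high libraries, the lists had other values than over all libraries. The B cell list there was 5.61 to 11.5 CPM in high-fat and 2.55 to 4.53 CPM in control libraries, without overlap, and the T cell list had means of 5.62 ± 1.33 and 3.51 ± 1.35 CPM (SD, n = 6). Cd8a had the largest difference in diet effect between the sets among these markers, with log2 fold changes of 3.03 in the Xist-low and -0.59 in the Xist-high libraries (interaction adjusted p = 0.00795, edgeR). The part of lymphocytes in the level of Msc was not tested. Its antisense neighbour Gm9947, which shares 539 exon bases, had 0 to 5 counts.

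Prrx1 (ENSMUSG00000026586, chr1:163245119-163313710, minus strand) had 6 to 98 counts on the high-fat diet (median 35) and 2 to 40 on the control diet (median 13.5). Its log2 fold change was 1.06 (SE 0.40, 2.09-fold, edgeR adjusted p = 0.035), which did not meet the threshold on p. It was called in 4 of 9 alternative fits that tested it: with library totals, with the replicate block, with the Xist set as a covariate and with 1 surrogate variable. In none of the 24 fits with 1 library left out was it called.

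**Figure D3:**
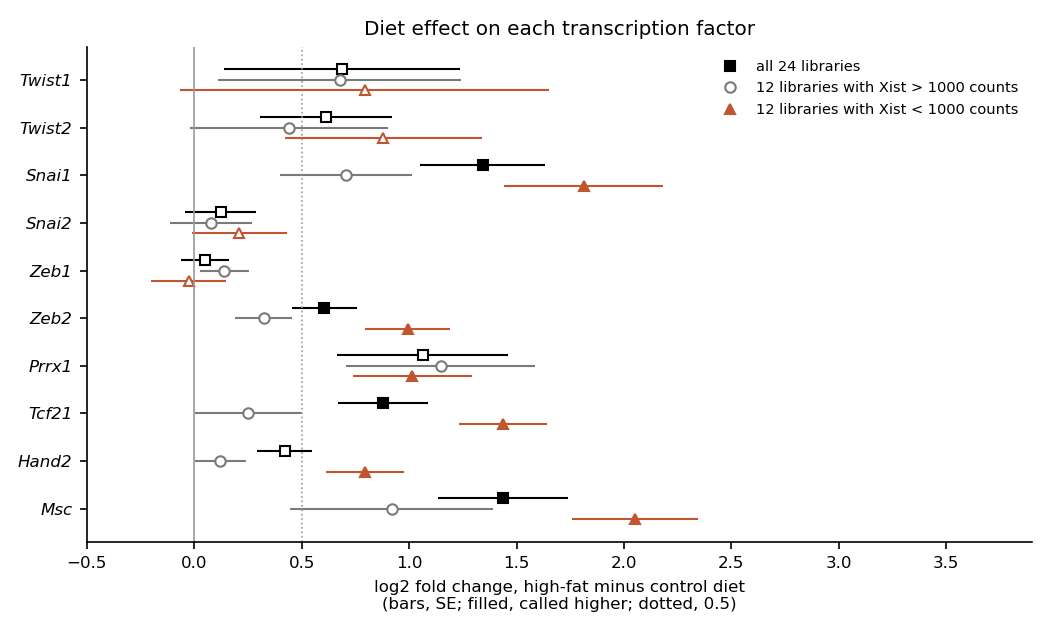
Log2 fold change (high-fat minus control diet) of each factor with its SE from edgeR, over all 24 libraries (squares), the 12 Xist-high libraries (circles) and the 12 Xist-low libraries (triangles); filled symbols were called higher. Of the 10 factors, 4 are filled for all libraries, 0 for Xist-high and 6 for Xist-low, and Prrx1 has nearly the same value in both sets (1.15 and 1.02).

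Fitted within the sets, 0 of the 10 factors were called higher in the Xist-high libraries, where 2.90% of the genes tested were called higher and 0.882% lower. At an unadjusted p under 0.05 in edgeR, 3 of them were higher there. These were Prrx1 (log2 fold change 1.15, edgeR adjusted p = 0.0949), Zeb2 (0.32, adjusted p = 0.119) and Snai1 (0.71, adjusted p = 0.14). In the Xist-low libraries 6 of 10 were called higher (Snai1, Zeb2, Prrx1, Tcf21, Hand2 and Msc) and 0 lower, beside 14.4% of the genes tested called higher and 7.99% lower. Without control replicate 10, Prrx1 dropped out of these 6 (log2 fold change 0.95, edgeR adjusted p = 0.0145) and the other 5 were called.

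Tcf21 had the largest difference in diet effect between the sets. In the Xist-high libraries it had 50 to 177 counts in high-fat and 62 to 138 in control libraries, with a log2 fold change of 0.25 (SE 0.25). In the Xist-low libraries it had 140 to 333 and 43 to 95 counts, with no overlap, and a log2 fold change of 1.44 (SE 0.21). The interaction of diet and set was 1.18 (SE 0.34, edgeR adjusted p = 0.0265), and 1.23 without control replicate 10 (adjusted p = 0.0214). Among all genes tested, 10.2% had an interaction at an adjusted p of at most 0.05. Tcf21 was the only 1 of the 10 factors to pass in edgeR, a count no higher than that share. For Hand2 the interaction was 0.66 (SE 0.22, edgeR adjusted p = 0.0511), for Zeb2 0.66 (SE 0.24, adjusted p = 0.0868), for Snai1 1.10 (SE 0.50, adjusted p = 0.177) and for Msc 1.13 (SE 0.58, adjusted p = 0.242). DESeq2's interaction term passed for Tcf21, Hand2 and Zeb2 (adjusted p = 0.00771, 0.0201 and 0.0364), beside 16.1% of the genes to which it gave an adjusted p. With library totals these 3 factors passed as well, beside 17.9% of the genes tested.

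Zeb2, Tcf21 and Msc were the factors whose every high-fat value exceeded every control value in the Xist-low libraries, a separation that 12.6% of the genes tested showed. In the Xist-high libraries 0 factors did so, against 3.51% of the genes. Msc had 21 to 43 counts against 2 to 8 in the Xist-low libraries. In the Xist-high libraries it had 7 to 47 and 3 to 19.

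Prrx1 showed another pattern, a difference between the sets on either diet. On the high-fat diet it had 43 to 98 counts in the Xist-low libraries and 6 to 27 in the Xist-high libraries. On the control diet, its counts were 9 to 40 and 2 to 15. In CPM, the sets did not overlap on either diet: 1.73 to 4.14 against 0.317 to 1.44 CPM on the high-fat diet, and 0.916 to 2.27 against 0.109 to 0.721 CPM on the control diet. Of all genes tested, 0.413% were higher without overlap in the Xist-low libraries of both diets, and Prrx1 was the only 1 of the 10 factors among them. The diet effect was nearly the same in the sets (interaction -0.14, SE 0.49, edgeR adjusted p = 0.905).

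Because several of the factors belong to stellate cells, each was set against the summed counts of a list of 16 quiescent stellate markers (Lrat, Reln, Des, Pdgfrb and others) in the same library. Of this list 6 of 16 genes were called higher and 0 lower, with the largest changes for Pdgfrb (1.42, SE 0.23) and Cygb (1.41, SE 0.23). Lrat (0.34, SE 0.20) and Reln (0.13, SE 0.13) were not called. The word quiescent is thus the label of the list and not a cell state read from these values. The list's sum was 670.2 to 946 CPM in high-fat and 466 to 895 CPM in control libraries. The log2 sum was 0.25 higher on the high-fat diet (permutation p = 0.00542). Relative to it, 4 factors had a higher mean in high-fat libraries at an unadjusted permutation p of at most 0.05. These were Msc by 1.21 (SE 0.28, p = 0.00044, permutation), Snai1 by 1.09 (SE 0.30, p = 0.00196, permutation), Tcf21 by 0.56 (SE 0.25, p = 0.036, permutation) and Zeb2 by 0.43 (SE 0.12, p = 0.00091, permutation). The other 6 did not pass. Prrx1 had a larger but more variable difference than Tcf21 and Zeb2, at 0.84 (SE 0.48, p = 0.0966, permutation), and Hand2 was at 0.21 (SE 0.12, p = 0.108, permutation). Twist1 (0.35), Twist2 (0.31), Snai2 (-0.09) and Zeb1 (-0.18) were the others. The share of all genes that pass this ratio test is not given, so the count of 4 has no background beside it. The rise of the list sum, 0.25, was below the log2 fold change of each of these 4. In the Xist-high libraries no factor passed (exact permutation p = 0.0563 or more). In the Xist-low libraries Prrx1 (0.67, exact permutation p = 0.0303) and Hand2 (0.45, exact permutation p = 0.0476) passed beside the same 4.

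The list sum leaned on a pair of genes, since Steap4 and Ecm1 made up 32.2% to 67.1% of it in a library. When these were left out, a choice made after seeing the data, the remaining sum was 0.49 higher on the high-fat diet. Snai1 and Msc then still passed (permutation p = 0.0117 and 0.00244), Zeb2 and Tcf21 did not (permutation p = 0.0845 and 0.202), and Zeb1 was lower relative to the list (permutation p = 0.00725).

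Set against the activated stellate or myofibroblast list (Col1a1, Col1a2, Col3a1, Acta2, Timp1, Lox and others), all 10 factors were lower on the high-fat diet. That list summed to 229 to 691 CPM in high-fat libraries and 50.2 to 246 CPM in control libraries, a log2 difference of 2.40 (permutation p = 3e-05), and 8 of its 10 genes were called higher. Relative to it, Msc and Snai1 fell by 0.94 and 1.06 on the log2 scale, while Zeb1 and Snai2 fell by 2.33 and 2.24. Each of the 10 differences passed at an unadjusted permutation p of at most 0.05, the highest being 0.0199 for Msc. The list sum rose by 2.40, more than the largest log2 fold change of a factor (1.44, Msc). The sign of all 10 differences was therefore set by the list and is not a separate result about the factors. Most of the sum was Col1a1, Col1a2 and Col3a1, whereas Acta2 and Tagln, at 0.53 and 0.47, were not called.

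**Figure D4:**
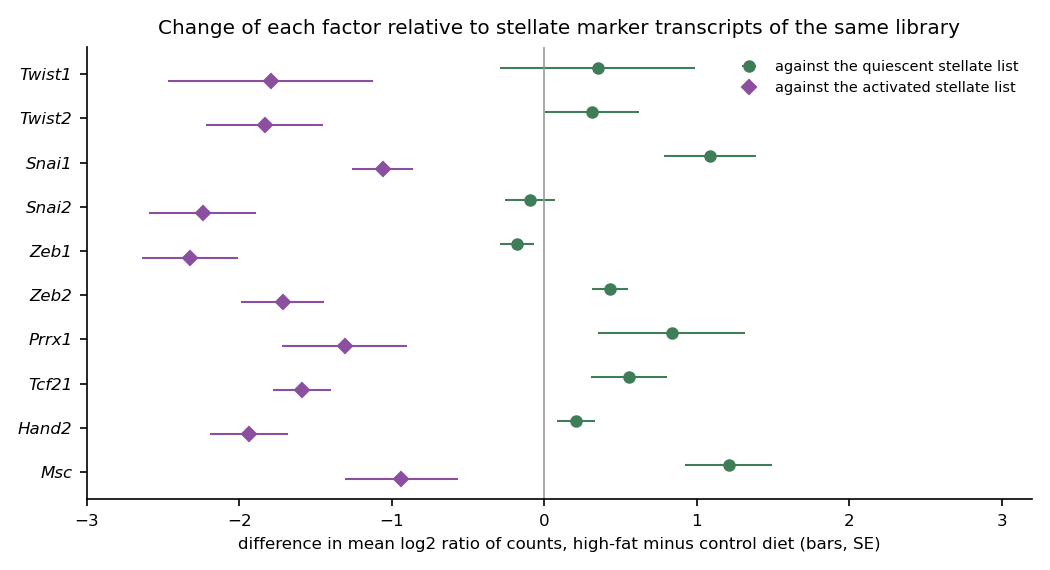
Difference between diets (high-fat minus control) in the mean log2 ratio of each factor's counts to the summed counts of the quiescent stellate list (green circles) or of the activated stellate list (purple diamonds), with SE, n = 12 per diet. All 10 diamonds lie left of 0, whereas 8 of 10 circles lie right of it, Msc farthest at 1.21.

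Other cell types that could hold these transcripts also moved. Macrophage markers, beside Zeb2, were called higher for 9 of 13 genes. Those not called were Clec4f (log2 fold change 0.20), Vsig4 (0.38), Marco (0.88) and Timd4 (-0.74). The sum of the macrophage list was 549.5 to 1327 CPM in high-fat and 164 to 686 CPM in control libraries. In the Xist-low libraries of the control diet, where Zeb2 was lowest, the macrophage sum was 164 to 290 CPM, against 359 to 686 CPM in the Xist-high ones. Portal fibroblast markers, beside Tcf21 and Twist2, were called higher for 6 of 8 genes and summed to 25.4 to 167 CPM and 13.6 to 40.2 CPM. The part of these cells in the values of the 10 factors was not tested.

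From library to library at the same diet and in the same Xist set, none of the relations computed between a factor and a marker list passed the adjustment. For the 8 factors with a median of at least 10 counts, the level and the log2 sum of the quiescent stellate, macrophage and sinusoidal endothelial lists were correlated after removing the mean of each of the 4 strata of 6 libraries, and 48 coefficients were tested. The activated stellate and portal fibroblast lists were not part of these relations. The largest was that of Zeb2 with the stellate list, with Pearson's r = 0.63 (permutation p = 0.00703, adjusted 0.285) and Spearman's rho = 0.46 (permutation p = 0.0438, adjusted 0.42). Leaving out the 2 libraries farthest from the median of the list gave r = 0.42, and r ranged from -0.008 to 0.86 over the strata. Msc had r = 0.41 with the stellate list (permutation p = 0.012, adjusted 0.285) and 0.46 with the sinusoidal endothelial list (permutation p = 0.0178, adjusted 0.285). Without the 2 farthest libraries these were 0.34 and 0.63, the latter then being the largest of the 24.

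By the same measure, the 3 genes most alike to each factor were looked up among 13775 genes with a mean of at least 10 counts, as a description over the 24 libraries. For Snai1 these were Mrc2 (r = 0.89), a collagen receptor of mesenchymal cells, Cygb (0.86), the stellate cell globin, and Phlda3 (0.86), a p53 target. Tcf21 was closest to Gsn (0.88), the actin-severing gelsolin, Cpz (0.85), a secreted carboxypeptidase, and Dpt (0.85), the matrix protein dermatopontin. Zeb2 was closest to Tgm2 (0.83), Sh3bgrl2 (0.81) and Plpp5 (0.81), and Zeb1 to Fam168a (0.92), Pik3ca (0.92) and Patl1 (0.91). Cygb is in the quiescent stellate list and Dpt in the portal fibroblast list. Snai2 was closest to Gm11437 (0.87), Inpp5b (0.84) and Lrp4 (0.82), Hand2 to Stc2 (0.75), Mpp2 (0.75) and Trpc1 (0.74), Msc to Orc2 (0.77), Nfe2 (0.76) and Rasd1 (0.75), and Prrx1 to Tiam1 (0.77), Ets2 (0.73) and Sema6a (0.73). Of these 24 genes, Mrc2, Cygb, Phlda3, Gsn, Cpz, Dpt, Tgm2, Stc2, Mpp2 and Ets2 were called higher on the high-fat diet, and Gm11437 was called lower (log2 fold change -0.95, edgeR adjusted p = 0.0035).

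Of the partners of the factors, 7 E proteins and Id proteins, 0 were called in either direction in edgeR, and the median log2 fold change was -0.17. At an unadjusted p under 0.05 in edgeR, 3 of the 7 were lower and 0 higher, and DESeq2 called 1 lower (Id1). For Id1, an inhibitor of helix-loop-helix dimers, the log2 fold change was -0.80 (SE 0.25, edgeR adjusted p = 0.0131), and for the E protein Tcf12 it was -0.26 (SE 0.10, edgeR adjusted p = 0.0355). Of 7 corepressors used by Snail and Zeb proteins, 0 were called in edgeR and 1 in DESeq2 (Ctbp2, higher), with a median of 0.02. At an unadjusted p under 0.05 in edgeR, 2 were higher and 1 lower. Ctbp1, a corepressor of Zeb proteins, had an adjusted p of 0.00733 with a log2 fold change of 0.18 (SE 0.05), below the threshold on size. Of 8 further paralogs, 4 had enough counts to be tested, 0 were called in edgeR or DESeq2 and 1 passed an unadjusted p of 0.05 in edgeR, the largest value being that of Scx, a tendon factor, at 2.0002 (SE 0.67, edgeR adjusted p = 0.0193). Hand1 and Ferd3l had 0 counts in every library.

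Of 22 other transcription factors of stellate or mesenchymal cells, 17 were tested, 7 were called higher and 0 lower, with a median log2 fold change of 0.42. The largest changes were those of Meox1, a homeobox factor of fibroblast activation (2.23, SE 0.46), Sox4 (2.14, SE 0.33), Foxs1, a pericyte forkhead factor (1.89, SE 0.40), and Wt1, of mesothelium and stellate precursors (1.48, SE 0.34), with edgeR adjusted p-values of 0.000508, 2.2e-05, 0.000638 and 0.00135. In the Xist-low libraries these 4 were at 3.28, 2.64, 2.12 and 1.56, and in the Xist-high libraries at 0.78, 1.28, 1.37 and 1.30. The difference between the sets passed for Meox1 (interaction adjusted p = 0.0413, edgeR), which had medians of 15.5 counts in high-fat and 4 in control libraries. The stellate regulators Lhx2 (0.42, SE 0.12, below the threshold on size) and Gata4 (0.10, SE 0.08) were not called.

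Epithelial and mesenchymal genes, on which Snail and Zeb proteins are known to act, were called in 1 direction only, higher, in edgeR's fit to all libraries. Of 12 mesenchymal genes, 7 were called higher and 0 lower, with a median of 1.09, led by Lum (2.11, SE 0.29), S100a4 (2.02, SE 0.39), Sparc (1.57, SE 0.20) and Vim (1.37, SE 0.20). Cdh2, N-cadherin, was at -0.28 (SE 0.10, edgeR adjusted p = 0.0344) and Fn1, which hepatocytes also secrete, at -0.52 (SE 0.16, edgeR adjusted p = 0.0122). DESeq2 called 8 mesenchymal genes higher and 1 lower, and 9 were higher and 2 lower at an unadjusted p under 0.05 in edgeR. Without control replicate 10, 1 mesenchymal gene was called lower in edgeR. Of 17 epithelial genes, 8 were called higher and 0 lower, with a median of 0.98. At an unadjusted p under 0.05 in edgeR, 9 were higher and 2 lower. Esrp2 was at -0.38 (SE 0.09, edgeR adjusted p = 0.00167), below the threshold on size, with means of 69.8 CPM in high-fat and 91.0 CPM in control libraries. The epithelial genes with the largest changes were Krt19 (2.72, SE 0.54), Krt7 (2.71, SE 0.56), Esrp1 (2.54, SE 0.48) and Epcam (2.31, SE 0.51). These values were larger in the Xist-low libraries, where they were 3.42, 3.48, 3.18 and 3.32, against 1.13, 1.10, 1.33 and 0.26 in the Xist-high libraries, and the difference passed for Epcam (interaction adjusted p = 0.00775, edgeR). On the high-fat diet Krt19 was at 7.22 ± 13.03 CPM (SD, n = 12). Krt19, Krt7 and Epcam are markers of bile duct cells, whose list had 5 of 6 genes called higher. The more abundant keratins Krt8 (1.45, SE 0.17) and Krt18 (1.02, SE 0.16), which are not in that list, were called higher as well. They were at 1.55 and 1.19 in the Xist-low and 1.32 and 0.80 in the Xist-high libraries. Krt8 had means of 481 CPM in high-fat and 176 CPM in control libraries. Cdh1, E-cadherin, a known target of Snail repression, had a log2 fold change of 0.46 (SE 0.35, edgeR adjusted p = 0.31), and the tight junction genes Ocln, Cldn1 and Tjp1 were at -0.31, -0.02 and -0.07 and not called.

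**Figure D5:**
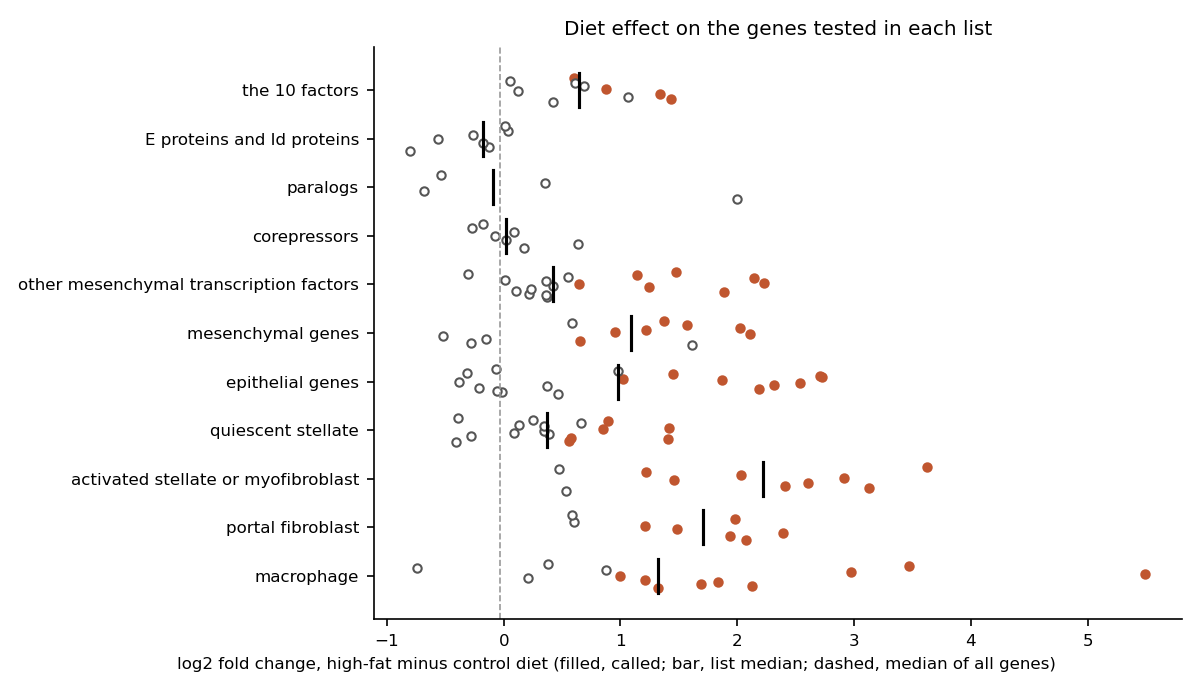
Log2 fold change (high-fat minus control diet) of every tested gene in the list of the 10 factors and in 10 related lists; filled points were called, bars mark the median of a list and the dashed line the median of all genes (-0.03). The factors' median of 0.65 lies above those of the E and Id proteins (-0.17) and corepressors (0.02) and below that of the activated stellate list (2.22).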

How the data were processed

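RNA was isolated from whole liver, and poly(A)-selected libraries were sequenced. The submitters' processing notes name bcl2fastq, STAR 2.7.3a and mm10, and the counting program, annotation and use of strand are not given in the sources used here. The authors deposited 1 table of counts of reads per gene, not normalized, for the 24 mouse liver libraries. Gene symbols and positions came from GENCODE M21 (GRCm38), which named 51745 of 56205 identifiers, and the other 4460 held 0.0723% of the counts. The 10 factors, the gene lists and the tests were chosen with earlier results of these data known.

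From the counts as deposited, genes covered by 1 count or more in 12 or more libraries were normalized by TMM and fitted for diet with edgeR 4.0.16 (quasi-likelihood test, R 4.3.3), as were the diet effects within sets split at 1000 Xist counts and their interaction. P-values were adjusted by the Benjamini-Hochberg method over all genes tested. The thresholds follow the study's methods. Standard errors were the log2 fold change over the root of F. Ratios (0.5 counts added) and levels, log2(CPM + 1), were compared by two-sided permutation tests with 100000 resamples, or exactly for 6 against 6. Their p-values are unadjusted: an adjustment over the 3 ratios or the 10 factors had been planned and is not given, because the factors were chosen with results known. Alternatives used DESeq2 1.42.0, limma 3.58.1, sva 3.50.0, other filters and scalings, and each library left out. All 10 factors are described. On data simulated from these counts for the diet comparison of 12 against 12, edgeR recovered 74% of 200 changed genes among 17717, with 1 unchanged gene called. No pair of libraries of a diet agreed within sampling noise (chi-square per degree of freedom at least 9.48). Counting error bounds the low values, and reads without molecular identifiers are not independent molecules. Same-numbered libraries of the diets deviated together with correlations of -0.083 to 0.302, under 0.1 for 3 numbers, so they were not used as pairs.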

Additional observations from a re-analysis of the deposited data

Results flagged for a closer look

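The diet effect on Tcf21 differed between the Xist-low and Xist-high libraries by the test of that difference itself, with an interaction of 1.18 on the log2 scale (SE 0.34, edgeR adjusted p = 0.0265 over all genes tested). This was 1 of the 10 factors, beside 10.2% of all genes tested, so the count of factors is at the share of all genes. In the Xist-low libraries Tcf21 was higher in all 6 high-fat libraries than in any of the 6 control libraries, a separation that 12.6% of all genes tested showed, while in the Xist-high libraries the diets overlapped. The activated stellate list, most of whose sum was the collagens Col1a1, Col1a2 and Col3a1, summed to 416 to 691 CPM in the Xist-low and 229 to 378 CPM in the Xist-high libraries of the high-fat diet. The contractile genes of that list, Acta2 and Tagln, had log2 fold changes of 0.34 and 0.18 in the Xist-low and 0.77 and 0.84 in the Xist-high libraries. They were not called in the fit to all libraries, and their calls within the sets are not given. The part of these cells in the difference was not tested.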

How the results depend on the processing

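The count of 4 factors called higher became 2 with at least 10 counts in every library (5 factors tested), 2 with a log2 fold change over 1 and 0 in the Xist-high libraries alone. It became 5 with 1 surrogate variable, 5 with the Xist set as a covariate, 6 in the Xist-low libraries, 6 with library totals and 6 at an adjusted p of at most 0.05 with no fold threshold. It was 4 in every fit with 1 library left out and 4 with the replicate block, where Prrx1 took the place of Tcf21. The replicate numbers do not pair the mice, and only replicates 2 and 11 correlated best with their own number. No factor was called lower in any alternative run. Over all genes, 2372 higher calls became 1230 with 10 counts in every library, 520 in the Xist-high libraries, 3827 with library totals, 3709 at an adjusted p of at most 0.05, 2063 with the replicate block and 2137 to 2464 with 1 library left out. They became 2476 with 1 surrogate variable and 2418 with the Xist set as a covariate. In the Xist-low libraries they were 2572, and with a log2 fold change over 1 they were 1690. The 894 lower calls became 158 in the Xist-high and 1431 in the Xist-low libraries, 226 with library totals, 3388 at an adjusted p of at most 0.05, 216 with a log2 fold change over 1, 844 with the replicate block and 745 to 995 with 1 library left out. Higher calls were 72.6% of all calls with TMM and 94.4% with library totals. The log2 fold change of Zeb1 changed sign in the Xist-low libraries (-0.026), and it was -0.010 to 0.084 with 1 library left out, below 0 without control replicate 10 only. The Twist1/Twist2 ratio difference was -0.10 in the Xist-low libraries and -0.23 to 0.29 with 1 library left out. In the Xist-high libraries the differences of Snai2/Snai1 (-0.65) and Zeb2/Zeb1 (0.19) no longer passed. The 4 factors higher relative to the quiescent stellate list became 0 against the activated list and 0 in the Xist-high libraries. The count of factors lower relative to it, 0, became 10 against the activated list, whose own sum rose by more than any factor did. Without Steap4 and Ecm1, an alternative chosen after seeing the data, these counts were 2 and 1. Factors whose diet effect differed between the sets numbered 1 in edgeR, and 3 with DESeq2 and with library totals, beside 10.2%, 16.1% and 17.9% of all genes. Except where the construction of an alternative shows it (fewer genes, fewer libraries), the cause was not tested. The default filter of edgeR left 8 factors to test, so the others have no value there. Alternatives without control replicate 10 for the interaction, the lists and the stellate ratios were also chosen after seeing the data.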

Other observations

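Further marker lists of the whole liver described the cells around the factors. Of 6 bile duct cell markers 5 were called higher (high-fat against control), the median log2 fold change was 2.58, and the list summed to 5.97 to 174 CPM against 4.89 to 15.9 CPM. Of 6 mesothelial markers 2 were called higher, with a median of 1.05. Of 5 smooth muscle markers 1 was called higher, with a median of -0.51. Sinusoidal endothelial markers had 1 of 8 called higher, a median of 0.02 and a log2 sum that differed by 0.04 (permutation p = 0.757). The log2 sum of the macrophage list differed by 1.26 (permutation p = 2e-05). Hepatocyte markers were called lower for 6 of 8 genes, with a median of -0.68. Of 5 adipocyte markers only Cidec, which fatty hepatocytes also make, had enough counts to be tested, and it was called higher (log2 fold change 2.93, edgeR adjusted p = 0.000205). Lep was at 0 counts in every library, and Adipoq, Plin1 and Retn had at most 5, 6 and 7.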
